A study of Mus musculus with 6 samples.

Results

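Mitochondrial ribosomal protein genes were taken from the deposited gene table by name and biotype: protein-coding rows whose symbol starts with Mrpl or Mrps and a number. The rule found 78 genes of 55232 features, spread over 17 chromosomes. The cells, a line of pulmonary microvascular endothelial cells from the mouse, were themselves untreated and had shared a 12 h co-culture with TCMK-1, an epithelial line from mouse kidney tubules. In the ATP-repleted group (3 samples) the TCMK-1 cells had been depleted of ATP and then repleted, a cell culture stand-in for ischaemia and reperfusion that the labels abbreviate as IR, and in the control group (3 samples) the TCMK-1 cells were untreated. The labels do not say whether samples of a group were separate cultures, so the spread that p-values measure here may be technical. Changes are log2 fold changes of the ATP-repleted group over control with their standard error (SE), from edgeR's quasi-likelihood test with Benjamini-Hochberg adjustment over all 13804 features that passed a filter on low counts, and a gene rose or fell here when its adjusted p was under 0.05.

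The mitochondrial ribosome is built in the matrix from ribosomal RNA (rRNA) encoded by mitochondrial DNA and proteins encoded in the nucleus, and it translates the few messages that mitochondrial DNA encodes, all for membrane subunits of the respiratory chain and ATP synthase. Some of its proteins have counterparts in bacterial ribosomes and others are specific to mitochondria, and in mammals the proteins make up much of the particle that rRNA makes up in bacteria. In endothelial cells, which draw much of their ATP from glycolysis, mitochondria are also known for signalling roles. Symbols do not always name the right subunit: the products of Mrps30 (mL65) and Mrps18a (mL66) sit in the large subunit, and that of Mrps36 belongs to the 2-oxoglutarate dehydrogenase complex. Placed by structure, the 78 genes comprised 51 of the large subunit, 26 of the small subunit and Mrps36.

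The stretches just upstream of 4 of the genes are shown because these windows hold no annotated exon and include some with and some without a match, in genes that fell and in 1 that did not pass: Mrpl45, Mrpl52 and Mrps9 fell, and Mrps14 did not pass the test. Each is the 250 bases before the gene's start in RefSeq (GRCm38.p6), at chr11:97315466-97315715, chr14:54426659-54426908, chr1:42850983-42851232 and chr1:160194965-160195214, all on the plus strand. Capitals mark a match on either strand to the letters searched for NRF1 (GCGCANGC) or for ETS factors such as GABP (CCGGAAG), transcription factors known for their part in genes of mitochondrial biogenesis.
Mrpl45: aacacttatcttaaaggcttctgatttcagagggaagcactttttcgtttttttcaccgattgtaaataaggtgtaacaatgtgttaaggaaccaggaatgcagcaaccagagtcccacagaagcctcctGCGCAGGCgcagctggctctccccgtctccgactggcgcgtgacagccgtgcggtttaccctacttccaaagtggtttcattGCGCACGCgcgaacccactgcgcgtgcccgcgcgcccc
Mrpl52: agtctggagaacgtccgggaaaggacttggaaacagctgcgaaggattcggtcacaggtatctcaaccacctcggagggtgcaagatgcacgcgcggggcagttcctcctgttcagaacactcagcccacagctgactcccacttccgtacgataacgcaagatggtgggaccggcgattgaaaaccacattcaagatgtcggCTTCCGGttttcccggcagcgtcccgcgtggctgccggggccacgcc
Mrps9: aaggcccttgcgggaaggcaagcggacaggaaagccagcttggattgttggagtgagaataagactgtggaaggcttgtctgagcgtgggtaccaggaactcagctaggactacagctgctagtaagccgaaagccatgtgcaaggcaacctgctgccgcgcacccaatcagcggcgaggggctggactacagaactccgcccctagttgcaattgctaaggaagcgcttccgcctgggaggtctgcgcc
Mrps14: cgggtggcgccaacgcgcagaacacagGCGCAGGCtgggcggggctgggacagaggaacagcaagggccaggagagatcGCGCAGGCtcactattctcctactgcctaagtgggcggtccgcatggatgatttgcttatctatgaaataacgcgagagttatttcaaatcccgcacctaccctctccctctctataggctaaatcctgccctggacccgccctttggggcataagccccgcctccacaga

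Mrpl45, which fell, and Mrps14, which did not pass, each held 2 NRF1 matches, Mrpl52 held 1 ETS match and Mrps9 held none of the letters searched. RefSeq windows were matched by symbol for 69 of the genes, giving 75 windows of the same length. NRF1 letters stood in 25.3% of these windows, in 16.3% of the 11719 windows of other tested protein-coding genes and in 8.3% of all windows. ETS letters stood in 24.0% of the windows of mitochondrial ribosomal protein genes and in 13.7% of those of other tested protein-coding genes. Among the 24 windows of genes that fell, 20.8% held NRF1 letters and 16.7% ETS letters, against 27.5% and 27.5% of the other 51 windows. YY1 letters (AANATGGCG) and TATA box letters (TATAAA) stood in 2.67% and 6.67% of the windows, against 2.11% and 6.38% of those of other tested protein-coding genes. A match describes the letters and no binding was measured.

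The libraries held 15582349 to 17817618 counts, and the 77 genes with any count took 39566 to 52786 of them. Summed over the 10 endothelial marker genes, CPM (read counts scaled to a common library total) was 2270 to 2620 in the ATP-repleted group and 2210 to 2460 in control. Of these markers, Erg, Tek and Egfl7 rose by 1.06, 0.58 and 0.42 on the log2 scale and Esam fell by 0.46 (edgeR, adjusted p = 5.77e-05, 0.00348, 0.00512 and 0.0034), while Pecam1, Cdh5, Kdr, Tie1 and Emcn did not pass. Cldn5 was removed by the filter, with 3 counts in 1 ATP-repleted library and 0 in every other library. Summed over 14 kidney tubular markers it was 19.1 to 28.0 CPM in the ATP-repleted group and 9.37 to 13.3 CPM in control, with Umod, Slc34a1, Krt18 and Epcam at 0. The 6 leukocyte markers summed to 0 to 1.02 CPM in the ATP-repleted group and 0.37 to 0.73 CPM in control, with Itgam and Cd3e at 0. The 6 fibroblast and mural markers summed to 16.8 to 24.7 CPM in the ATP-repleted group and 20.3 to 22.6 CPM in control, with Lum at 0. Of the tubular markers only Cubn passed, at 13.8 ± 2.24 CPM in the ATP-repleted group and 3.52 ± 0.41 CPM in control (SD, n = 3 each; edgeR, adjusted p = 4.19e-06). Pax2 and Pax8 did not pass, and the other 11 were removed by the filter. The part of these markers in the results on mitochondrial ribosomal protein genes was not tested.

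Most mitochondrial ribosomal protein genes that changed were lower in the ATP-repleted group. Of 77 tested genes, 24 fell, 3 rose and 50 did not pass the test. Falls made up 31.2% of the genes, against 19.2% of all tested features, and rises 3.9%, against 20.5% of all tested features. The median log2 fold change was -0.24, with 55 of 77 genes below 0, beside a median of 0.001 over all tested features. The falls were shallow: the deepest was that of Mrps25, to 0.55 times its control level. In 29 genes all ATP-repleted samples lay below all control samples and in 5 all lay above. Over all tested features, 25.4% were separated downward in this way and 25.0% upward. In bulk RNA, fewer cells of a type and less RNA per cell cannot be told apart.

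Without control sample 3 the number of falls dropped to 16. The number of rises was 0 without control sample 2 or without ATP-repleted sample 3. It was 1 without control sample 1 or without ATP-repleted sample 2, and 5 without ATP-repleted sample 1. Fits with a sample left out hold fewer samples, so a call can be lost while the fold change stays as large. Scaling by library size alone gave 21 falls and 5 rises. Removing each library's trend with gene length gave 18 falls and 5 rises. Removing the trends with length and GC content gave 20 falls and 6 rises. The 19.2% and 20.5% of all tested features hold for the main setting only. Shares of all tested features under the changed settings are not given here, so these counts have no background beside them. In the authors' deposited table, 22 of the genes had an adjusted p under 0.05 and a negative fold change and 2 had one with a positive fold change, and all of these carried the same call here. Over the 24680 features with a deposited adjusted p, such calls were 10.1% for falls and 11.4% for rises. That set is wider than the 13804 features that passed the filter here, so these shares are not like the 19.2% and 20.5% above.

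**Figure D1:**
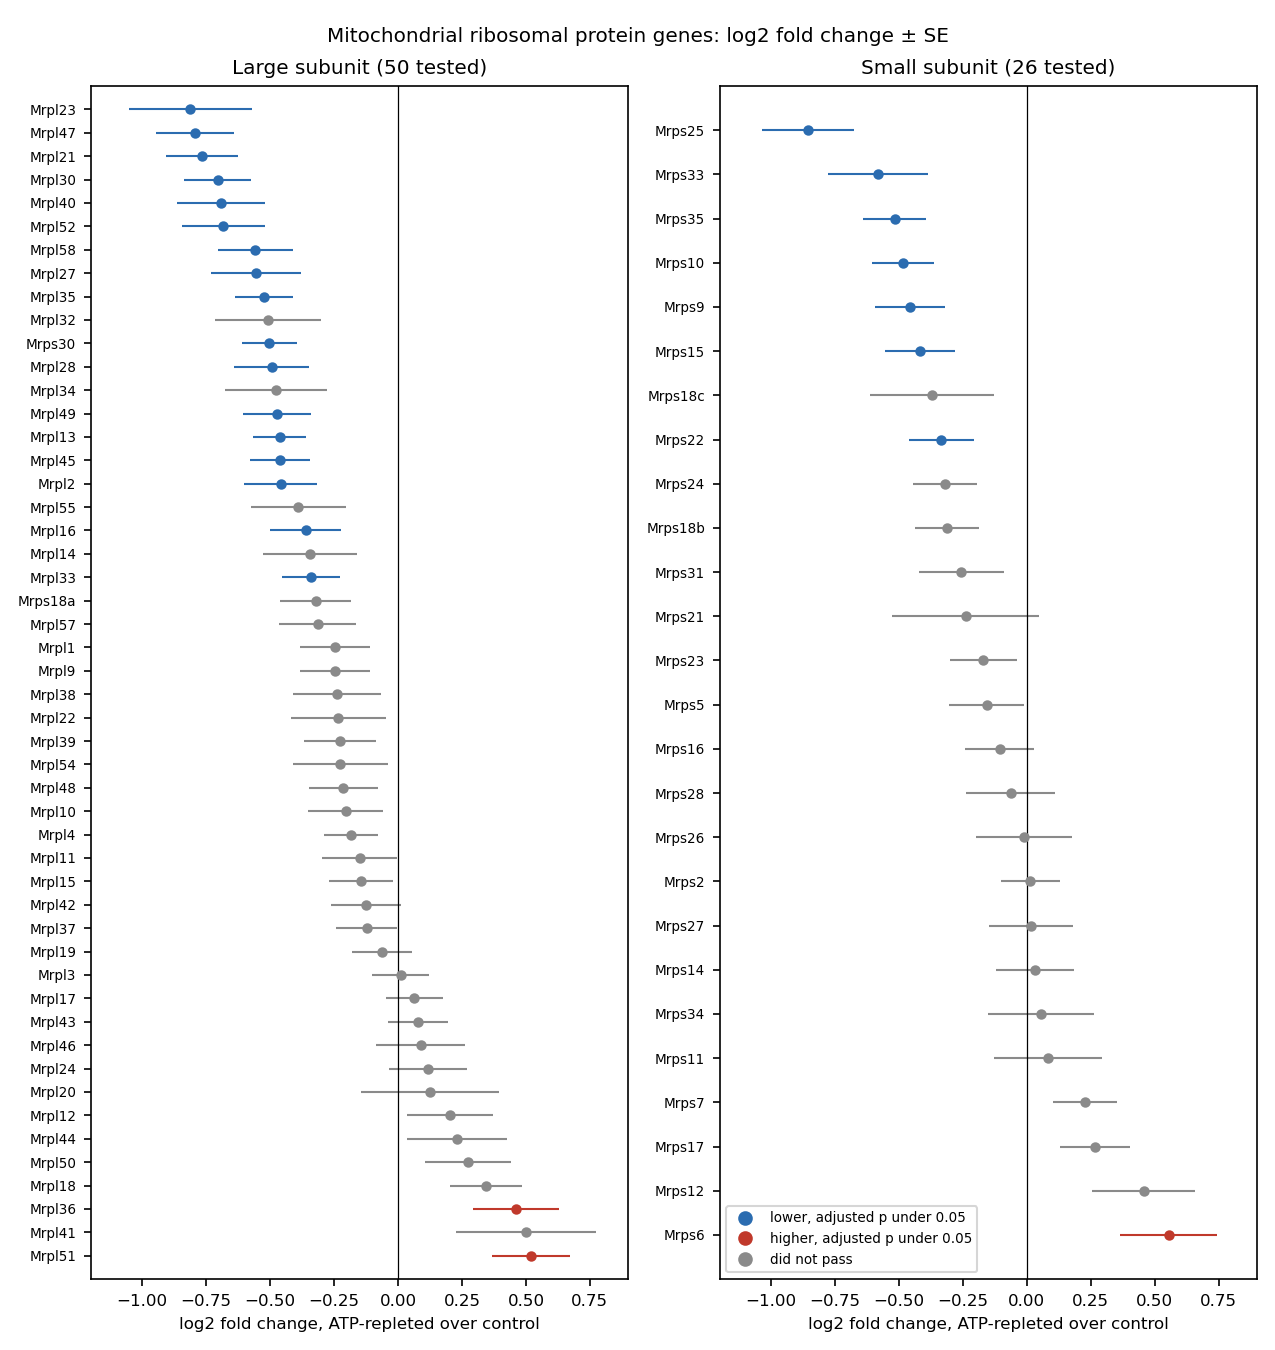
Log2 fold change (x axis, ATP-repleted over control) of each tested mitochondrial ribosomal protein gene, points with bars of 1 SE, ordered from lowest to highest and split by the subunit of the protein; Mrps36, which is in neither, is left out. Most points lie left of 0, and the deepest falls, Mrpl23 at -0.81 and Mrps25 at -0.85, stand at the top of their panels.

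As a share of all counts, the genes together held 0.264%, 0.254% and 0.261% in the ATP-repleted samples and 0.297%, 0.274% and 0.296% in the control samples. Every ATP-repleted sample was below every control sample. The means were 0.260% ± 0.0054 in the ATP-repleted group and 0.289% ± 0.0132 in control (SD, n = 3 each). Relative to counts of nuclear protein-coding genes alone they were 0.273% ± 0.0063 in the ATP-repleted group and 0.302% ± 0.0138 in control.

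Falls were found in both subunits. In the large subunit, 17 of 50 tested genes fell and 2 rose, with a median log2 fold change of -0.24. In the small subunit, 7 of 26 fell and 1 rose, with a median of -0.16. Falls were 34.0% of the large and 26.9% of the small subunit genes, against 19.2% of all tested features. Rises were 4.0% and 3.85%, against 20.5%. Whether the subunits differ was not tested, and the small subunit's count dropped to 4 without control sample 3, without ATP-repleted sample 3, or with the length trend removed. Genes with a bacterial counterpart and mitochondria-specific genes gave similar shares. Among those with a counterpart 14 of 46 fell (30.4%) and 2 rose (4.35%), with a median of -0.24. Among the mitochondria-specific ones 10 of 30 fell (33.3%) and 1 rose (3.33%), with a median of -0.23.

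Around the exit of the peptide tunnel of the large subunit, Mrpl47, Mrpl45 and Mrpl23 fell. Mrpl22 (uL22m), Mrpl24 (uL24m) and Mrpl17 (bL17m), whose products also lie there, did not pass, at -0.23 ± 0.19, 0.12 ± 0.15 and 0.06 ± 0.11 (edgeR, adjusted p = 0.337, 0.572 and 0.685). These genes were grouped by place after their values were seen. Mrpl47 (uL29m; chr3:32725397-32737605), a tunnel-exit protein, had 14.3, 13.4 and 16.4 CPM in the ATP-repleted samples and 26.3, 22.5 and 27.6 CPM in the control samples. All 3 ATP-repleted samples were below all control samples, and the log2 fold change was -0.79 ± 0.15 (SE; edgeR, adjusted p = 0.000664). Mrpl45 (mL45; chr11:97315716-97329920), whose product ties the ribosome to the inner membrane, had 49.7, 41.5 and 49.2 CPM in ATP-repleted samples, against 65.9, 66.2 and 61.1 CPM in control samples. It fell by 0.46 ± 0.12 on the log2 scale (edgeR, adjusted p = 0.00493), again with no overlap between the groups. Mrpl23 (uL23m), at the rim of the exit, had only 82 to 143 counts in ATP-repleted libraries and showed -0.81 ± 0.24 (edgeR, adjusted p = 0.0127). Its call was lost without control sample 3 (log2 fold change -0.62, adjusted p = 0.087) and without ATP-repleted sample 3 (-0.66, adjusted p = 0.068).

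Other large subunit proteins with bacterial counterparts included the next steepest falls. Mrpl21 (bL21m; chr19:3282901-3292837) had 19.4, 16.2 and 20.7 CPM in the ATP-repleted samples and 32.9, 31.3 and 31.7 CPM in the control samples, a change of -0.77 ± 0.14 (edgeR, adjusted p = 0.000448). Mrpl30 (uL30m; chr1:37890477-37898535) had 24.9, 24.4 and 28.4 CPM in ATP-repleted samples, against 40.5, 40.8 and 45.3 CPM in control samples. Its change of -0.71 ± 0.13 had the smallest adjusted p of all the genes (edgeR, 0.000415). For both genes the highest ATP-repleted sample stayed below the lowest control sample. Mrpl35 (bL35m) averaged 48.6 ± 3.78 CPM in the ATP-repleted group and 69.9 ± 3.71 CPM in control, and Mrpl13 (uL13m) averaged 60.6 ± 2.46 CPM in the ATP-repleted group and 83.5 ± 0.501 CPM in control (SD, n = 3 each). They fell by 0.52 and 0.46 on the log2 scale (edgeR, adjusted p = 0.00164 and 0.00217).

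Of the mitochondria-specific large subunit genes, Mrpl40 (mL40) had 17.6, 12.3 and 15.4 CPM in ATP-repleted samples and 20.1, 26.5 and 26.8 CPM in control samples, with a log2 fold change of -0.69 ± 0.17 (edgeR, adjusted p = 0.00412). Mrpl52 (mL52; chr14:54426909-54429756), shown above with its ETS match, had 30.5, 30.6 and 37.3 CPM in ATP-repleted samples, against 43.8, 45.6 and 68.6 CPM in control samples. Its change was -0.68 ± 0.16 (edgeR, adjusted p = 0.00296), and control sample 3 stood above the other control samples. Mrpl58 (mL62, formerly Ict1), a peptidyl-tRNA hydrolase that frees stalled ribosomes, averaged 20.2 ± 1.86 CPM in the ATP-repleted group and 29.7 ± 3.56 CPM in control (SD, n = 3 each), a change of -0.56 ± 0.15 (edgeR, adjusted p = 0.0059). Mrps30 (mL65; chr13:118378381-118387252) was among the more abundant, with 103.2, 91.5 and 91.7 CPM in ATP-repleted samples, against 147.0, 125.1 and 133.8 CPM in control samples. It fell by 0.50 ± 0.11 on the log2 scale (edgeR, adjusted p = 0.00133). Mrps18a (mL66), the other large subunit gene with a small subunit symbol, did not pass at -0.32 ± 0.14 (edgeR, adjusted p = 0.0765).

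Further genes of the large subunit fell. Mrpl49 (mL49) averaged 31.1 ± 2.48 CPM in the ATP-repleted group and 43.2 ± 4.93 CPM in control (SD, n = 3 each), a change of -0.47 ± 0.13 (edgeR, adjusted p = 0.00911), and kept its call with any sample left out. Mrpl28 (bL28m) at -0.49 lost its call without control sample 3 (-0.37, adjusted p = 0.0924). Mrpl27 (bL27m) at -0.56 lost it without control sample 3 or ATP-repleted sample 1 (-0.48 and -0.39, adjusted p = 0.084 and 0.0689). Mrpl2 (uL2m), which lies near the catalytic centre, at -0.46 lost it without control sample 3 or ATP-repleted sample 2 (-0.36 and -0.37, adjusted p = 0.107 and 0.0571). Mrpl33 (bL33m) at -0.34 lost it without control sample 1 or 3 or ATP-repleted sample 1 or 3, at -0.31, -0.31, -0.27 and -0.37 (adjusted p = 0.0708, 0.0892, 0.0729 and 0.0534). Other settings cost calls too. With the length trend removed, Mrpl27 and Mrpl2 lost theirs, at -0.45 and -0.36 (edgeR, adjusted p = 0.0582 and 0.0528). With same-numbered samples as blocks besides, Mrpl49, Mrpl28 and Mrpl2 did, at -0.38, -0.37 and -0.36 (edgeR, adjusted p = 0.0621, 0.0583 and 0.0739). Mrpl33 did with library size only, at -0.28, and with same-numbered samples as blocks alone, at -0.34 (edgeR, adjusted p = 0.0533 and 0.0517).

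Genes of the stalk, where translation factors bind, did not pass the test. Mrpl10 (uL10m), Mrpl11 (uL11m) and Mrpl12 (bL12m) showed -0.20 ± 0.15, -0.15 ± 0.15 and 0.20 ± 0.17 (edgeR, adjusted p = 0.287, 0.447 and 0.357). Mrpl12 had 25.4, 19.3 and 17.7 CPM in ATP-repleted samples and 18.2, 20.0 and 16.0 CPM in control samples, and the groups overlapped. Mrpl44 (mL44), which has a ribonuclease III-like fold, was at 0.23 ± 0.20 (edgeR, adjusted p = 0.371). Mrpl3 (uL3m) was at 0.01 ± 0.11, with the sign changing between settings. For these genes the SE leaves room for modest changes in either direction.

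In the small subunit, Mrps25 (mS25; chr6:92169525-92184033), a mitochondria-specific protein, fell the most of all the genes. It had 12.4, 9.51 and 8.44 CPM in ATP-repleted samples and 17.2, 18.3 and 19.4 CPM in control samples, a change of -0.85 ± 0.18 (edgeR, adjusted p = 0.00133). Its gene overlaps Nr2c2 on the opposite strand and shares 3533 identical transcript bases with it. Nr2c2, which encodes an orphan nuclear receptor, rose by 0.64 ± 0.15 (edgeR, adjusted p = 0.00228), and since the strand setting of the counting is not given, reads from the shared bases cannot be assigned to either gene here. Mrps35 (mS35) had 29.5, 33.3 and 31.6 CPM in ATP-repleted samples, against 43.5, 45.5 and 46.0 CPM in control samples, and fell by 0.52 ± 0.12 (edgeR, adjusted p = 0.00292). Mrps10 (uS10m), a protein of the head of the subunit, averaged 49.8 ± 4.97 CPM in the ATP-repleted group and 69.6 ± 6.16 CPM in control (SD, n = 3 each) and fell by 0.48 ± 0.12 (edgeR, adjusted p = 0.00402).

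The remaining small subunit falls lost their calls with at least 1 sample left out. Mrps33 (mS33) had 16.7, 10.3 and 9.94 CPM in ATP-repleted samples and 18.3, 18.6 and 18.3 CPM in control samples, a change of -0.58 ± 0.20 (edgeR, adjusted p = 0.0251). Its call was lost without control sample 2 or 3 or ATP-repleted sample 2 or 3, at -0.59, -0.59, -0.47 and -0.45 (adjusted p = 0.0588, 0.0563, 0.0753 and 0.122). Mrps9 (uS9m), at -0.46, lost its call without ATP-repleted sample 3 (-0.39, adjusted p = 0.0709). Mrps15 (uS15m), at -0.42, lost it without control sample 3 or ATP-repleted sample 2 (-0.36 and -0.38, adjusted p = 0.0996 and 0.0511). Mrps22 (mS22), at -0.33 ± 0.13 (edgeR, adjusted p = 0.0452), lost it without any 1 of the 6 samples, at -0.39 to -0.32 (adjusted p = 0.0501 to 0.124). With the length trend removed, Mrps33, Mrps15 and Mrps22 lost their calls too, at -0.49, -0.32 and -0.31 (edgeR, adjusted p = 0.0513, 0.0638 and 0.0623). The call of Mrps22 was lost under 13 of 18 alternatives in all. Mrps12 (uS12m), a protein of the decoding centre, was not lower, at 0.46 ± 0.20 (edgeR, adjusted p = 0.0795), with 9.28, 10.0 and 9.82 CPM in ATP-repleted samples, against 6.40 to 7.80 CPM in control samples. Mrps7 (uS7m), an rRNA-binding protein of the head, was at 0.23 ± 0.13 (edgeR, adjusted p = 0.164). In both, every ATP-repleted sample lay above every control sample, and neither passed the test.

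The family of Mrps18 has 3 genes in mammals. Mrps18b (mS40) showed -0.31 ± 0.13 (edgeR, adjusted p = 0.0566) and Mrps18c (bS18m) -0.37 ± 0.24 (edgeR, adjusted p = 0.239), beside Mrps18a above. Mrps26 and Mrps27 were near 0, at -0.01 ± 0.19 and 0.02 ± 0.16, with the sign changing between settings. Mrps36, the dehydrogenase subunit, had 9.40, 5.98 and 8.14 CPM in ATP-repleted samples and 14.1, 9.52 and 11.1 CPM in control samples. Its change of -0.56 ± 0.22 did not pass (edgeR, adjusted p = 0.0532).

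**Figure D2:**
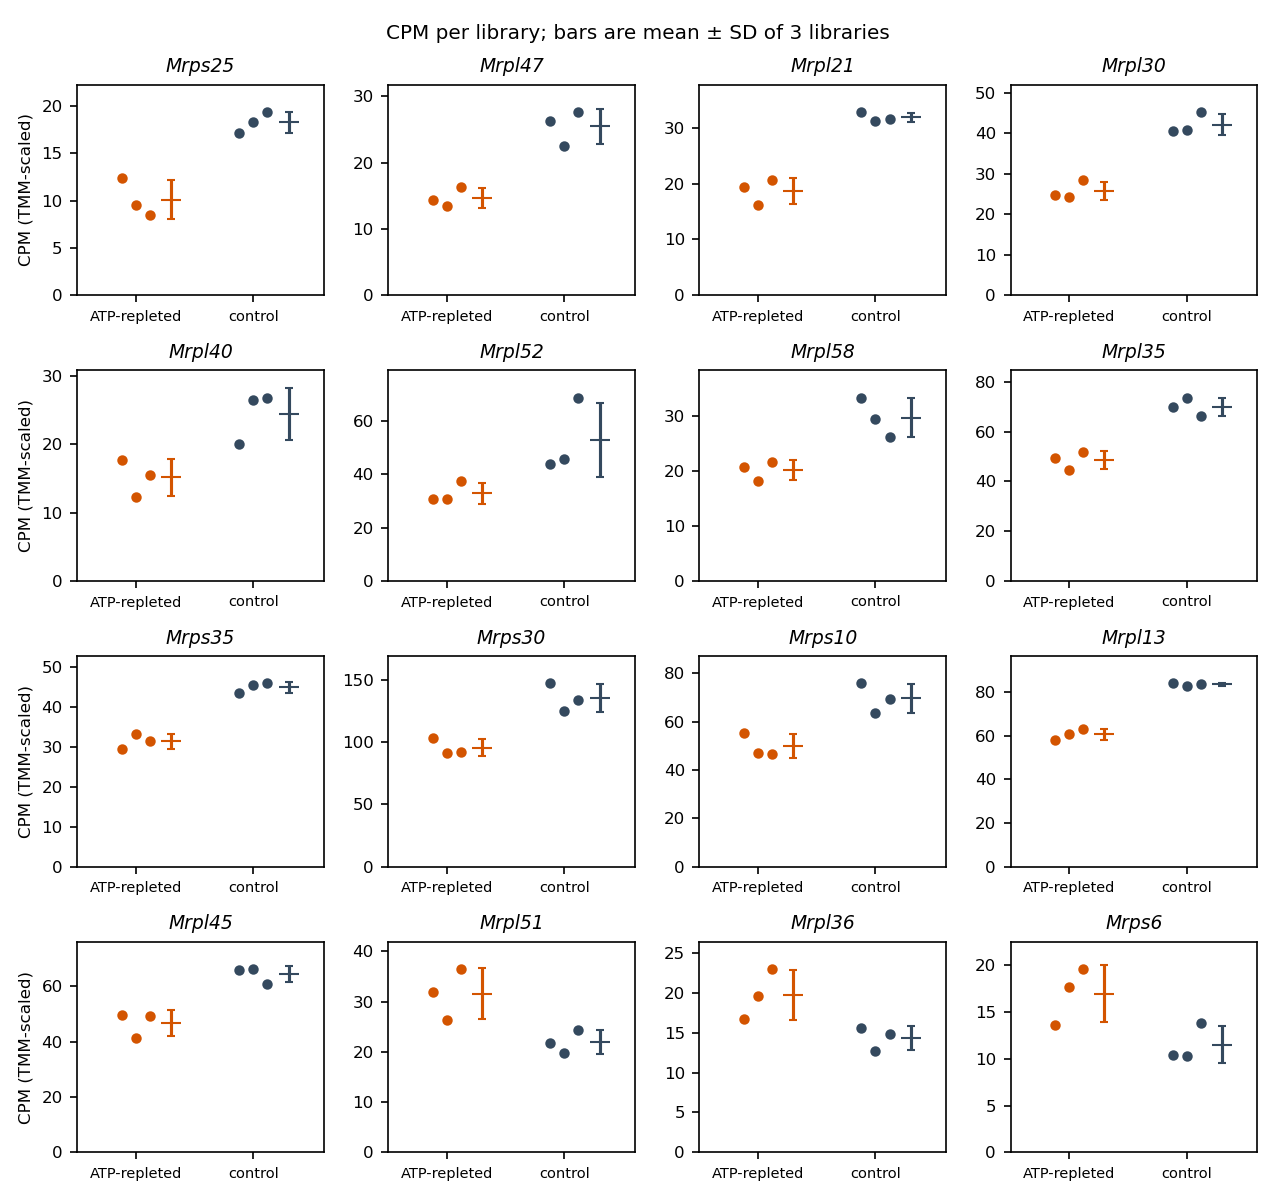
CPM (y axis from 0, scaled by TMM library factors) in each of 3 ATP-repleted samples (left) and 3 control samples (right) for the 13 genes that fell under every one of 18 alternative settings and the 3 that rose, with mean ± SD beside the points. In the 13 falling genes the groups do not overlap, which the choice of genes with kept calls favours. Over all tested features, 25.4% were separated downward. In Mrps6 the lowest ATP-repleted sample, at 13.6 CPM, lies below the highest control sample, at 13.8 CPM.

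Rises were few, and each lost its call with at least 1 sample left out, in some fits without a smaller fold change. Mrpl51 (mL51; chr6:125191801-125196269) had 32.0, 26.3 and 36.5 CPM in ATP-repleted samples and 21.9, 19.7 and 24.4 CPM in control samples, a change of 0.52 ± 0.15 (edgeR, adjusted p = 0.0116). The groups did not overlap, and the call was lost without control sample 2 (0.43, adjusted p = 0.072) and without ATP-repleted sample 3 (0.40, adjusted p = 0.0869). Mrpl36 (bL36m; chr13:73328513-73332178), one of the smallest ribosomal proteins, had 16.7, 19.6 and 22.9 CPM in ATP-repleted samples, against 15.5, 12.7 and 14.8 CPM in control samples. Its change was 0.46 ± 0.17 (edgeR, adjusted p = 0.037). The call was lost without control sample 1, 2 or 3, at 0.50, 0.36 and 0.47 (edgeR, adjusted p = 0.0509, 0.162 and 0.082). It was also lost without ATP-repleted sample 2 or 3, at 0.46 and 0.33 (edgeR, adjusted p = 0.0563 and 0.198). With no filter and with same-numbered samples as blocks it was lost too, at 0.42 and 0.46 (edgeR, adjusted p = 0.075 and 0.0624).

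Mrps6 (bS6m; chr16:92058270-92112227), named here after its values were seen as the only other gene that rose, had 13.6, 17.7 and 19.6 CPM in ATP-repleted samples and 10.4, 10.3 and 13.8 CPM in control samples. Its change was 0.56 ± 0.19 (edgeR, adjusted p = 0.0266), and the call was lost without control sample 1 or 2, at 0.47 and 0.46 (adjusted p = 0.097 and 0.116), and without ATP-repleted sample 2 or 3, at 0.52 and 0.43 (adjusted p = 0.0571 and 0.141). Slc5a3, the sodium and myo-inositol transporter gene, lies within Mrps6 on the same strand. How reads from any bases they share were counted was not tested. Slc5a3 went the other way, with 570, 650 and 494 counts in ATP-repleted samples and 1424, 1520 and 1366 counts in control samples. Its change was -1.36 ± 0.13 (edgeR, adjusted p = 1.21e-06).

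Mrpl53 was the 1 gene removed by the filter. It was listed with 0 counts in all 6 libraries, which allows up to 0.168 to 0.193 CPM per library at a limit of 3 counts, for counting error only. It overlaps Gm42688 on the same strand, with 419 identical transcript bases. Gm42688 had 11, 3 and 14 counts in ATP-repleted libraries and 10, 1 and 5 counts in control libraries, and how reads of the shared bases were counted was not tested.

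Overlaps of this kind were common. Of the 78 genes, 42 overlapped another annotated gene on either strand, 13 of them on the same strand, and 11 shared a near-identical transcript stretch with another feature. Among the 32 tested genes with neither, 10 fell, 31.2%, against 19.2% of all tested features. None rose, against 20.5% of all tested features. The other 22 did not pass, and the median log2 fold change of the 32 genes was -0.24. Mrpl30, Mrpl35, Mrpl52, Mrps10 and Mrps35 were among those 32. Mrpl47 overlaps Actl6a and Ndufb5 on the opposite strand, which were at 0.27 ± 0.12 and -0.30 ± 0.14 (edgeR, adjusted p = 0.0801 and 0.0846), and Mrpl13 overlaps Mtbp, at -0.002 ± 0.11 (edgeR, adjusted p = 0.988). Mrpl21 overlaps Ighmbp2 on the opposite strand, which fell as well, by 0.61 ± 0.15 (edgeR, adjusted p = 0.00445). Without a strand setting, reads from any bases they share cannot be assigned to either gene here. Gm37637, opposite Mrps22, fell too, by 1.51 ± 0.37 (edgeR, adjusted p = 0.00404).

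Gene pairs that start near each other in opposite directions moved apart as well as alike. Of the genes, 24 had a protein-coding neighbour starting within 1000 bases on the other strand, and both were tested in 23 pairs. In 6 of these pairs the mitochondrial ribosomal protein gene fell. The partner also fell in 2 of the 6 (Fau beside Mrpl49 and Ighmbp2 beside Mrpl21), rose in 1 (Hira beside Mrpl40, at 0.65 ± 0.20; edgeR, adjusted p = 0.017) and did not pass in 3. Ighmbp2 and Mrpl21 overlap, as given above. Over all 23 tested partners 4 fell and 5 rose, shares near the 19.2% and 20.5% of all tested features. The widest gap was between Mrps18b and Ppp1r10, which encodes a protein phosphatase 1 regulatory subunit and starts 45 bases away: Ppp1r10 rose by 4.48 ± 0.21 on the log2 scale (edgeR, adjusted p = 1.08e-09), while Mrps18b was at -0.31 and did not pass. Partners were taken by position, and the pair of Mrps18b and Ppp1r10 was singled out after its values were seen.

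Genes with short features were lower more often than those with long ones across these libraries. Most mitochondrial ribosomal protein genes have short features, so they were set beside other protein-coding genes of like feature length. Feature length is that of the deposited table and need not be the length of the message. Their median feature length was 2255 bases, against 4482 bases over all tested protein-coding genes. Over 11682 tested protein-coding genes the log2 fold change went with length at a Spearman's rho of 0.25 (Pearson's r 0.19), and over the 77 genes at -0.12 (-0.16), both as descriptions across genes of the same libraries. In the shortest of 4 length classes of equal size (255 to 2835 bases), 11 of 44 mitochondrial ribosomal protein genes fell, 25.0%, against 27.1% of 2878 other genes, so there the share was near that of other short genes. Rises in that class were 4.55% of the mitochondrial ribosomal protein genes and 11.4% of the others, and the medians were -0.23 and -0.17. In the class of 2836 to 4482 bases 5 of 17 mitochondrial ribosomal protein genes fell, 29.4%, against 23.9% of the others. In the class of 4483 to 6855 bases 4 of 9 fell, 44.4%, against 20.1% of the others. In the longest class (6856 to 123179 bases) 4 of 7 fell, 57.1%, against 11.8% of 2914 other genes, and the medians were -0.34 and 0.18. Those 4 were Mrpl33, Mrpl13, Mrps10 and Mrps35, and whether their messages are as long as their features was not tested. The part of length in the result was not tested beyond these values and the length-trend setting above.

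**Figure D3:**
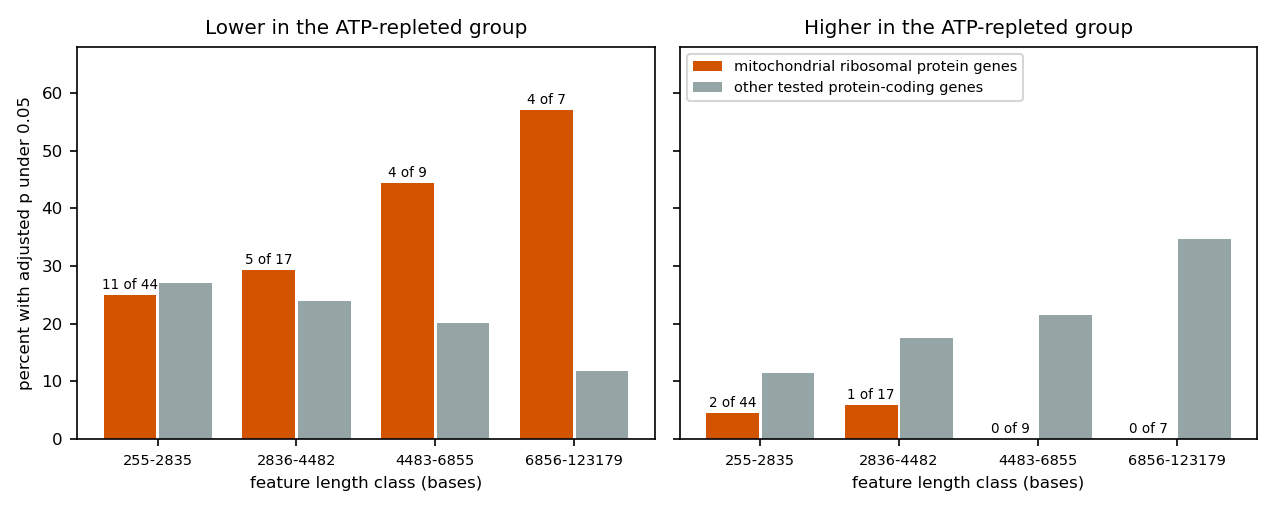
Percent of genes past the threshold (y axis) by class of feature length in bases (x axis), for falls (left panel) and rises (right panel) in the ATP-repleted group, with mitochondrial ribosomal protein genes left of other tested protein-coding genes and their counts above the bars. In the shortest class 25.0% of them fell beside 27.1% of the others, and in the longest 57.1% beside 11.8%.

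Per length, on the scale of the deposited FPKM (read counts scaled to feature length and library size), levels differed 29.5-fold between tested members of the family although their products enter the particle in fixed proportions. The median level was 10.2 FPKM in the ATP-repleted group and 11.4 FPKM in control. By the mean over all 6 samples, the most abundant were Mrpl16 with a level of 45.9 ± 7.28 FPKM in ATP-repleted and 58.4 ± 9.17 FPKM in control samples, Mrps24 with 44.5 ± 6.20 FPKM in ATP-repleted and 55.1 ± 6.72 FPKM in control samples, and Mrpl43 with 47.3 ± 4.47 FPKM in ATP-repleted and 44.4 ± 3.37 FPKM in control samples (mean ± SD, n = 3 each). In ATP-repleted samples alone, Mrpl18 (uL18m) was at 47.1 ± 6.82 FPKM, against 36.8 ± 6.42 FPKM in control samples, and the ATP-repleted levels of these 4 genes lay within each other's SD. The least abundant of those tested, by the same mean, were Mrpl23 with 1.29 ± 0.359 FPKM in ATP-repleted and 2.25 ± 0.513 FPKM in control samples, Mrps25 with 1.53 ± 0.30 FPKM in ATP-repleted and 2.74 ± 0.165 FPKM in control samples, and Mrpl32 with 2.68 ± 0.872 FPKM in ATP-repleted and 3.79 ± 0.552 FPKM in control samples. The order of the 78 levels was much the same in both groups, with a Spearman's rho of 0.93 between group means. The level depends on the feature length in the table, which for Mrps25 is 6576 bases. Of the 3 most abundant, Mrpl16 changed by -0.36 ± 0.14 (edgeR, adjusted p = 0.047), with overlapping groups and a call lost without control sample 1 or 3 or ATP-repleted sample 1 or 3, at -0.29, -0.33, -0.28 and -0.33 (adjusted p = 0.159, 0.134, 0.125 and 0.147). The call of Mrpl16 was lost under 12 of 18 alternatives in all, DESeq2 among them (-0.35, adjusted p = 0.0515), with adjusted p from 0.0108 to 0.214. Mrps24 was at -0.32 ± 0.13 (edgeR, adjusted p = 0.0506) and Mrpl43 at 0.08 ± 0.12 (edgeR, adjusted p = 0.627).

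**Figure D4:**
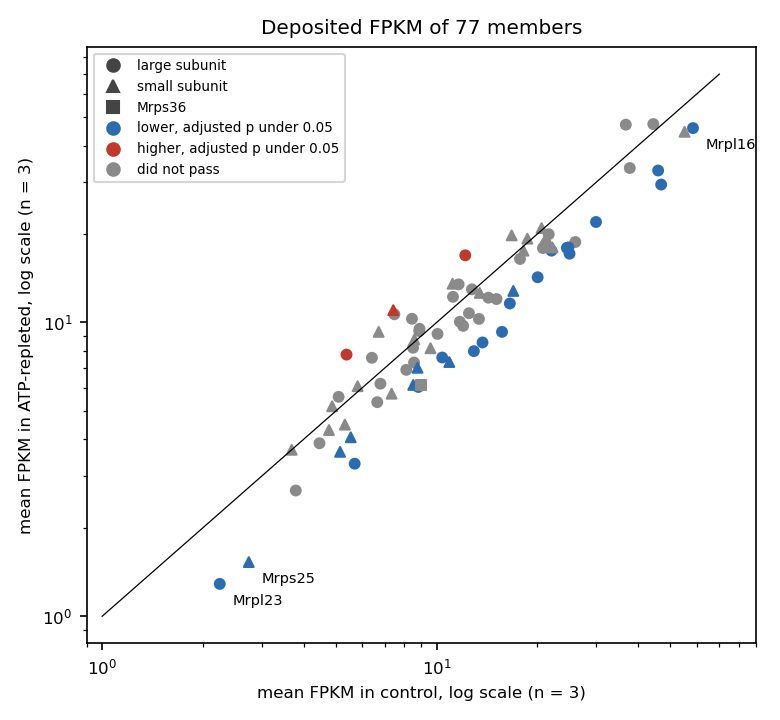
Mean deposited FPKM in the ATP-repleted group (y axis) and in control (x axis), both on log scales (n = 3 each), for the 77 genes with any count, with the line of equal levels. Points largely keep their order between groups, with Mrpl23 lowest in both groups and Mrpl16 highest in control, and most lie below the line.

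The rRNA of the particle was lower too. The labels name total RNA as input and not how rRNA or messenger RNA was handled, which bears on every rRNA value. The small subunit rRNA gene mt-Rnr1 had 824.2, 748.8 and 744.6 CPM of the unscaled totals in ATP-repleted samples, against 2958, 2390 and 2554 CPM in control samples. No ATP-repleted sample came near a control sample, and the change was -1.83 ± 0.11 (edgeR, adjusted p = 5.14e-09). The large subunit rRNA gene mt-Rnr2 had 1281, 1558 and 1450 CPM in ATP-repleted samples and 2620, 1905 and 2257 CPM in control samples. It fell by 0.72 ± 0.12 (edgeR, adjusted p = 0.00018), again with no overlap.

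Of 5 mitoribosomal subunits with other names, 3 fell and the other 2 did not pass. The falls were 60.0% of this short list, against 19.2% of all tested features. Dap3 (mS29), a GTP-binding small subunit protein, had 959, 1016 and 991 counts in ATP-repleted libraries and 1606, 1369 and 1600 counts in control libraries, a change of -0.65 ± 0.11 (edgeR, adjusted p = 0.000226). Aurkaip1 (mS38) and Chchd1 (mS37) fell by 0.53 ± 0.16 and 0.32 ± 0.12 (edgeR, adjusted p = 0.0145 and 0.0433). The call of Aurkaip1 was lost without control sample 3 (adjusted p = 0.0804), and that of Chchd1 without control sample 1 or 3 or ATP-repleted sample 2 or 3 (0.0716, 0.188, 0.0594 and 0.169). Ptcd3 (mS39) was at 0.26 ± 0.11 (edgeR, adjusted p = 0.0633) and Gadd45gip1 (mL64) at -0.05 ± 0.28 (edgeR, adjusted p = 0.912).

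Among 28 genes of mitoribosome assembly and rRNA modification, 8 fell, 2 rose and 18 did not pass, with a median log2 fold change of -0.31. The falls were 28.6% of the list and the rises 7.14%, against 19.2% and 20.5% of all tested features. Ngrn, Rcc1l and Trub2, known in human cells as parts of a module that modifies the large subunit rRNA, fell by 0.83 ± 0.14, 0.59 ± 0.13 and 0.54 ± 0.14 (edgeR, adjusted p = 0.000271, 0.0019 and 0.00475). Fastkd2, an RNA-binding protein known from the same module, moved the other way, with 470, 558 and 605 counts in ATP-repleted libraries and 368, 351 and 298 counts in control libraries, a change of 0.65 ± 0.16 (edgeR, adjusted p = 0.0034). Rpusd3 and Rpusd4, also known from that module, did not pass, at -0.95 ± 0.37 and -0.25 ± 0.20 (edgeR, adjusted p = 0.0503 and 0.343). The genes of the module were grouped after their values were seen. Nsun4, a methyltransferase of the small subunit rRNA that also acts in joining the subunits, fell by 0.79 ± 0.14 (edgeR, adjusted p = 0.000238). Tfb1m, which dimethylates the small subunit rRNA, had 124, 142 and 156 counts in ATP-repleted libraries, against 51, 49 and 46 counts in control libraries. It rose by 1.50 ± 0.25 (edgeR, adjusted p = 0.000166), and it overlaps Tiam2 and Cldn20 on the opposite strand. Calls of the other 4 genes of the list that fell, Mrm3, Eral1, Malsu1 and Mpv17l2, were each lost without at least 1 library.

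Of 13 tested genes of mitochondrial translation factors, Mtif2 and Taco1 rose and the other 11 did not pass, with a median log2 fold change of 0.10. The rises were 15.4% of the list, against 20.5% of all tested features. Mtif2, the initiation factor, had 642, 535 and 686 counts in ATP-repleted libraries and 353, 367 and 371 counts in control libraries, a change of 0.74 ± 0.13 (edgeR, adjusted p = 0.00036). Taco1, a translational activator, rose by 0.65 ± 0.23 (edgeR, adjusted p = 0.0308), a call that was lost without any of the control samples (adjusted p = 0.0555, 0.093 and 0.0853) and without ATP-repleted sample 2 or 3 (0.0891 and 0.0559). Whether translation factors differ from the ribosomal proteins as a list was not tested.

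Of 12 regulators of mitochondrial biogenesis, 3 rose, 1 fell and 8 did not pass. The rises were 25.0% of the list, near the 20.5% of all tested features, and the fall 8.33%, against 19.2%. Both Gabpa and Gabpb2, which encode subunits of the ETS factor GABP, rose, by 0.53 ± 0.12 and 0.94 ± 0.13 (edgeR, adjusted p = 0.0019 and 2.44e-05), and Gabpb1 was at 0.03 ± 0.10 (edgeR, adjusted p = 0.868), with the sign changing between settings. Gabpb2 had 1395, 1238 and 1368 counts in ATP-repleted libraries and 583, 785 and 682 counts in control libraries, with no overlap. Ppargc1a, the coactivator PGC-1alpha, fell by 0.43 ± 0.14 (edgeR, adjusted p = 0.0184), a call lost without control sample 3 (adjusted p = 0.0683) and without ATP-repleted sample 3 (0.0857). Tfb2m, a mitochondrial transcription factor, rose by 0.38 ± 0.13 (edgeR, adjusted p = 0.0303), a call lost without control sample 1 or 2 or ATP-repleted sample 1 or 3 (0.0902, 0.132, 0.0961 and 0.0727). Nrf1, Tfam, Yy1, Myc, Esrra, Pprc1 and Ppargc1b did not pass, at 0.05, 0.18, 0.14, 0.22, -0.15, 0.04 and -0.07, with the sign of Nrf1, Pprc1 and Ppargc1b changing between settings.

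The cytosolic ribosome stood beside these as the family most like them. Of 76 tested cytosolic ribosomal protein genes, 61 fell and 1 rose, with a median log2 fold change of -0.55, against 24 falls and 3 rises of 77 and a median of -0.24 in the mitochondrial family. The cytosolic falls were 80.3% of the family and the rise 1.32%, beside 19.2% and 20.5% of all tested features. The difference between the families was not tested.

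**Figure D5:**
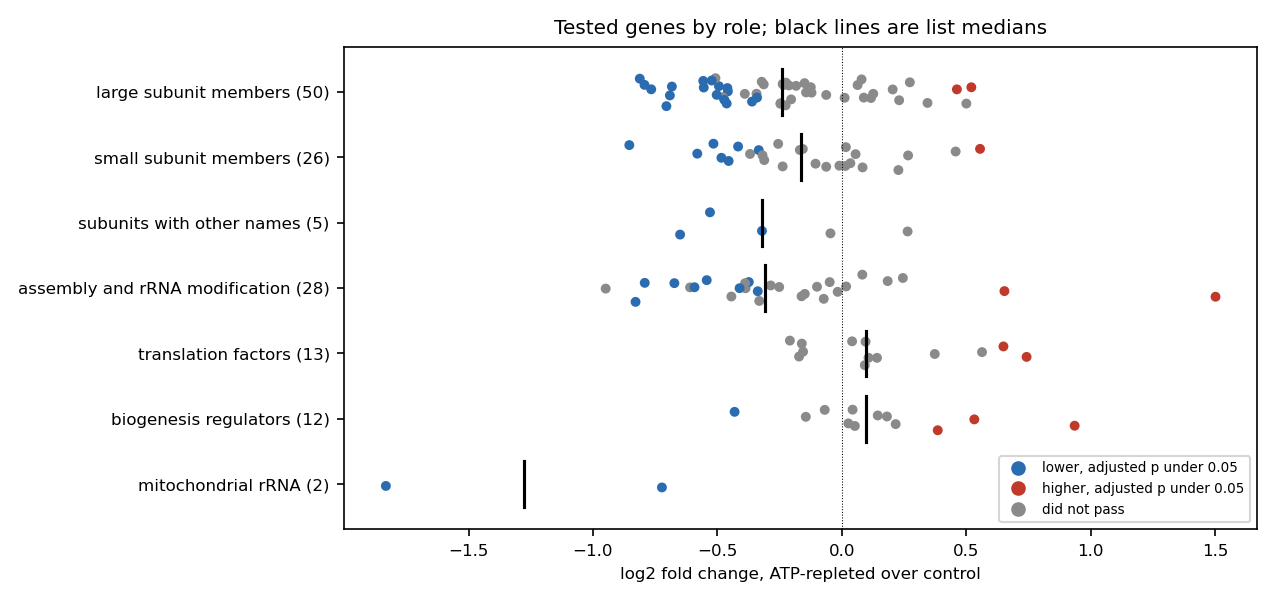
Log2 fold change (x axis, ATP-repleted over control) of each tested gene by role, with the number of tested genes in brackets, colours for the test result and black lines at the medians. The medians of the protein subunits and assembly genes lie below 0, from -0.16 to -0.32, and those of translation factors and biogenesis regulators lie near 0.10.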

How the data were processed

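Total RNA of 6 samples was sequenced, 3 per group by their titles. Per the submitters' processing notes, HISAT2 2.0.5, featureCounts 1.5.0-p3, DESeq2 1.20.0 and GRCm38.p6 were used; the sources used here give neither their roles nor a strand setting or annotation release. The deposited table holds whole-number read counts per feature. Its deposited FPKM equal counts divided by feature length and by a constant of 0.981 to 1.04 times each library's total, so the authors scaled libraries. The authors' deposited log2 fold changes and adjusted p-values are named so per the file headers.

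Counts were tested with edgeR 4.0.16 (R 4.3.3): filterByExpr by group (minimum count 10) kept 13804 features and removed 41428, followed by TMM scaling (0.970 to 1.03), glmQLFit and glmQLFTest, two-sided, with a threshold of 0.05. SE came from the F statistic; variation between replicates (common BCV) was 14.1%. Depth was 15582349 to 17817618 counts. Replicates differed by more than sampling noise (chi-square per feature 8.56 to 23.3). Overlaps, GC content and transcript stretches (BLAST 2.17.0, 95% identity over at least 30% of a transcript) came from GENCODE M21, in which 73 of the 78 genes had the same span. Alternatives were DESeq2 1.42.0, limma-voom 3.58.1, other scalings and filters, length and GC trends, a replicate block and each sample left out.

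Named genes were the 8 largest falls and rises past the threshold without overlap of groups, the 3 highest and 3 lowest levels, genes removed by the filter, structural landmarks, and the 3 highest adjusted p; others that fell under every alternative or illustrate a count were chosen after their values were seen. Members and lists were chosen with earlier results of these data known. In the translation factor list, Slirp did not pass the filter and Mtrfr was not matched under that symbol.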

Additional observations from a re-analysis of the deposited data

How the results depend on the processing

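Of the 27 calls, 13 were kept under all 18 alternatives, all of them falls: Mrps25, Mrpl47, Mrpl21, Mrpl30, Mrpl40, Mrpl52, Mrpl58, Mrpl35, Mrps35, Mrps30, Mrps10, Mrpl13 and Mrpl45. The share of calls kept over all tested features is not given here. Every alternative used the same deposited counts. They therefore cannot test how reads were assigned between Mrps25 and Nr2c2 or between Mrpl21 and Ighmbp2. The number of falls was 24, and between 18 and 27 under the alternatives that kept all samples, 16 to 26 with a sample left out. The 16 without control sample 3 held 15 of the 24. The number of rises was 3, and 5 with library size only, 5 with the length trend removed, 6 with the length and GC trends removed and 0 to 5 with a sample left out. Small subunit falls were 7, and 4 with the length trend removed and 4 to 6 with a sample left out. The cause of these shifts was not tested, and shares of all tested features under these settings are not given here. The median log2 fold change stayed between -0.28 and -0.17, while the median of all tested features, 0.001 here, moved to 0.063 with library size only and to 0.130 with no filter. Same-numbered samples did not deviate together (correlations -0.0757, -0.0331 and 0.0552, beside -0.0568 to 0.0787 for samples of unlike number). Deviations were taken from means of only 3 samples, so these values cannot exclude a pairing by number. With the replicate block there were 23 falls, 21 of them among the 24, and 2 rises.

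Signs changed for genes near 0 that did not pass. Mrpl3 was at -0.004 with upper quartile factors, -0.026 with no filter, -0.015 and -0.016 with the length and the length and GC trends removed, -0.015 with the replicate block and length trend, and -0.046 to 0.076 with a sample left out. Mrps27 was at -0.000 with upper quartile factors, -0.021 with no filter and -0.079 to 0.118 with samples left out. Mrps26 was at 0.055 with library size only, 0.002 with a minimum of 1 CPM in 3 samples, 0.009 with the length trend removed and -0.204 to 0.136 with samples left out. Gadd45gip1 was at 0.018 with library size only, 0.022 and 0.093 with the trends removed and -0.509 to 0.267 with samples left out. Pprc1 was at -0.025 and -0.043 with the length trend removed, without and with the replicate block, and -0.135 to 0.142 with samples left out. Gabpb1 was at -0.012 with no filter, -0.059, -0.059 and -0.059 with the trends removed and -0.029 to 0.040 with samples left out. Nrf1 was at -0.173, -0.166 and -0.171 with the trends removed, and Ppargc1b at -0.510 to 0.220 with samples left out. Low counts, such as the 81 to 168 per library of Mrps18c, limit how small a change can be seen.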
